A study of Mus musculus with 14 samples.

Results

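The 7 fibrillar collagen genes Col1a1, Col1a2, Col2a1, Col3a1, Col5a1, Col5a2 and Col11a1 were followed through every probe that carries their symbols, 17 of the 34885 probes with a single gene symbol among 45281 on the array. The heads of E8.5 mouse embryos (5 to 7 somites, on a mixed background of BALB/c, 129 and C57Bl/6) were profiled on 14 Illumina bead arrays to find genes whose RNA depends on Twist1 in cranial mesoderm. Twist1 is a basic helix-loop-helix (bHLH) transcription factor made in the head mesenchyme. Every embryo carried at least 1 floxed Twist1 copy. Control heads were Twist1flox/+; Mesp1+/+ (n = 4) and CM-Het heads Twist1flox/+; Mesp1Cre/+ (n = 3). Het heads were Twist1flox/del; Mesp1+/+ (n = 3) and CM-CKO heads Twist1flox/del; Mesp1Cre/+ (n = 4). Cre from the Mesp1 locus acts in early mesoderm, including that of the head and heart, so mesenchyme of neural crest origin keeps its floxed copy in CM-CKO heads. The deleted copy in Het and CM-CKO heads is missing from every cell. The labels do not say whether replicates were single embryos, litters or pools, and p-values then measure only the spread between these samples.

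Fibrillar collagens are secreted as procollagen chains that wind into rope-like molecules and align outside the cell into banded fibrils. Type I collagen, built from the Col1a1 and Col1a2 chains, and type III collagen, built from Col3a1, form the bulk of fibrils in bone, skin and loose connective tissue. Type II collagen, built from Col2a1, is the fibril of cartilage and of the notochord sheath. Type V chains (Col5a1, Col5a2) and type XI chains (Col11a1) sit within type I and type II fibrils and start their assembly. At this stage the head has no bone and no mature cartilage, and its loose mesenchyme comes from mesoderm and neural crest.

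Promoter sequence was at hand for 4 of the 7 genes, as RefSeq windows on GRCm38.p6 of 300 bases, from 250 before to 50 after the annotated start. The windows of Col3a1 and Col5a1 are printed because, of the 4, Col3a1 had the most E-boxes, the bHLH recognition letters CANNTG, and Col5a1, with none, was above background on the most arrays. Capitals mark the E-boxes, and every motif was searched on both strands. The Col3a1 window is chr1:45311288-45311587 on the plus strand and the Col5a1 window is chr2:27886175-27886474 on the plus strand.
Col3a1: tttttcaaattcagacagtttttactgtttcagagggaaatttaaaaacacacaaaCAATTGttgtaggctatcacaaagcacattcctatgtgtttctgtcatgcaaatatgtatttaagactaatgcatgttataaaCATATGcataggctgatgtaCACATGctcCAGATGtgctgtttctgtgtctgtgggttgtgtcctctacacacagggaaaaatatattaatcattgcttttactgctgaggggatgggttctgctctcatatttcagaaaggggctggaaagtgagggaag
Col5a1: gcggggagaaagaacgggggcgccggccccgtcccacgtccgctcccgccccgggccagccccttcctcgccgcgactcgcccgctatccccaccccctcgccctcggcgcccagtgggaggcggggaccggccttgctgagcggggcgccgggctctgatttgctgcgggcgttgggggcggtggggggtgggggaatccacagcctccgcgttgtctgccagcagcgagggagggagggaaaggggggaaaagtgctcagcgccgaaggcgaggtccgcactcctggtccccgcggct
The Col3a1 window held 4 E-boxes, which start at positions -194, -111, -91 and -82 relative to the start site. One of them, at -111, read CATATG, and another, at -82, read CAGATG, both of them forms of the E-box. A TATAAA stretch at -117 abutted the CATATG without overlap, and the Col3a1 window was 37.7% G and C. The windows of Col5a1, Col1a2 and Col11a1 held 0 E-boxes, and the Col5a1 window was 75% G and C. CCAAT occurred in the windows of Col1a2 (2 matches) and Col11a1 (1 match). Of 32851 such windows genome-wide, 72.3% held CANNTG, 17.2% CAGATG, 3.91% CATATG, 13.6% TATAAA and 37.4% CCAAT. These are letter matches, with no binding measured. Col3a1 and Col5a2 are neighbours on chromosome 1, with 0 protein-coding genes between them.

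Only part of the family was measurable in these heads. A probe was counted as above background on an array where its detection p-value was under 0.05, and it was tested where this held on at least 3 arrays. Of the 17 probes, 7 met this, for 5 of the 7 genes, while 51.6% of all named probes met it. All 3 Col2a1 probes and the Col5a1 probe were above background on 14 of 14 arrays, and the Col1a2 probe on 12. The Col1a1 probe was above background on 3 arrays, 2 Control and 1 CM-CKO. The brightest of the 4 Col11a1 probes was above background on 3 arrays, and the other 3 on 1 CM-CKO array each. Neither Col3a1 probe (1 and 0 arrays) nor any of the 5 Col5a2 probes (2, 1, 0, 0 and 0 arrays) passed. Col3a1 and Col5a2 were therefore left out of the tests over genes, and only a fit of every named probe without the filter covers them. The 7 probes that passed do not stand for the family, since the filter keeps the brighter ones.

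**Figure D1:**
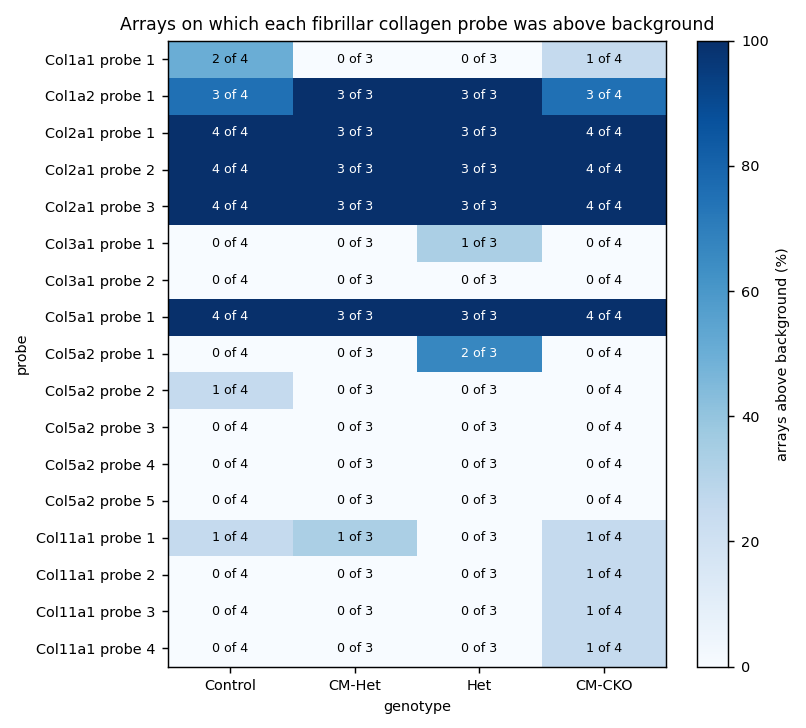
Number of arrays of each genotype (columns) on which each of the 17 fibrillar collagen probes (rows) was above background, with the colour giving the percent of that genotype's arrays. The 3 Col2a1 probes and the Col5a1 probe were above background on all 14 arrays, whereas the probes of Col3a1 and Col5a2 were above background on 2 or fewer.

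Twist1 was read first as a check of the labels, although the place of its probe relative to the deleted stretch is not given. Its signal averaged 9.32 ± 0.20 on the log2 scale (SD, n = 4) in Control, 8.65 ± 0.14 in CM-Het, 8.60 ± 0.12 in Het and 7.75 ± 0.14 (n = 4) in CM-CKO. Between 40.3% and 43.0% of probes were above background on each array, and median intensities ran from 92.3 to 116. Of head mesenchyme markers, 9 of 10 were tested, and their mean log2 signal was 6.91 to 7.25 on Control arrays, 6.63 to 6.72 on CM-Het and Het arrays and 6.10 to 6.24 on CM-CKO arrays. Heart muscle markers (7 of 8 tested) split the arrays within genotypes. Their mean log2 signal was 9.41 on Control 1 and 9.23 on Control 3 but 6.80 and 6.60 on the other Control arrays. It ran from 6.63 to 6.90 in CM-Het, from 6.26 to 7.87 in Het and from 6.27 to 8.68 in CM-CKO. Yolk sac endoderm markers (6 of 9 tested) were at 8.09 on Control 1 and between 4.91 and 6.31 on the other arrays. Erythroid markers (6 of 6 tested) were at 8.61 on CM-CKO 1 and between 4.80 and 6.59 on the other arrays, and CM-CKO 1 held the lowest signal of Col5a1, Col1a1 and the brightest Col2a1 probe. Endothelial markers (7 of 7 tested) averaged 6.66 to 6.93 on Control and 6.33 to 6.53 on CM-CKO arrays, and Cldn5 alone of them was called lower. The part of these cells in the results was not tested. Beadchip 1 held the CM-Het and Het arrays. Beadchip 2 held every Control array with CM-CKO 1 and 2, while the remaining CM-CKO arrays filled beadchip 3.

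No fibrillar collagen differed between CM-CKO and Control heads at the threshold. Of the 5 genes tested, 0 were called by limma with Benjamini-Hochberg adjustment over 11394 genes (adjusted p under 0.05), against 80 of all genes tested, or 0.702%. All 5 estimates were below 0, with a median of -0.21 on the log2 scale, against a median of 0.00 over all genes. At an unadjusted p under 0.05 there were 2 of the 5 (Col5a1 and Col1a1), where 11.2% of all genes tested met this. This counts the brightest probe of each gene, and the other 2 Col2a1 probes, described with that gene, also met it (unadjusted p of 0.0191 and 0.00471). In bulk heads, fewer cells of a type and less RNA per cell cannot be told apart.

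Col5a1, the chain that makes type V collagen and with it starts type I fibrils, had the largest estimate among the brightest probes of the 5 genes. Its log2 signal was 9.52, 9.06, 9.37 and 8.97 on Control arrays 1 to 4 and 8.66, 8.89, 8.81 and 9.01 on CM-CKO arrays 1 to 4. Control 1 and Control 3 were the brightest of all 14 arrays, while Control 4 fell inside the CM-CKO range, so the groups overlapped. The log2 difference, CM-CKO minus Control, was -0.39 (SE 0.11, 95% interval -0.62 to -0.16), a 1.31-fold lower mean. Its adjusted p was 0.151 (limma, Benjamini-Hochberg), and a two-sided exact permutation test over the 4 against 4 arrays gave p = 0.0571, where the smallest possible is 0.0286. Over the 30 such tests of members in pairs of genotypes, the lowest Benjamini-Hochberg value was 0.756. Within beadchip 2, which holds all Control arrays and 2 of CM-CKO, the difference was -0.46 (adjusted p = 0.384).

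The 2 Control arrays with the most Col5a1 were also the 2 with the most heart muscle signal. With Control 1 and Control 3 left out, the Col5a1 difference was -0.17 (adjusted p = 0.594). Without Control 1 alone it was -0.29 (adjusted p = 0.361). With the heart muscle signal as a covariate in the limma fit it was -0.33 (adjusted p = 0.119). These settings were chosen after the data were seen, apart from the single array left out. On CM-CKO 4, where heart muscle signal was 8.68, Col5a1 was 9.01, the highest of its group. On Het 3, where heart muscle signal was 7.87, it was 8.82, the lowest of its group. The part of heart tissue in the Col5a1 difference beyond these values was not tested.

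**Figure D2:**
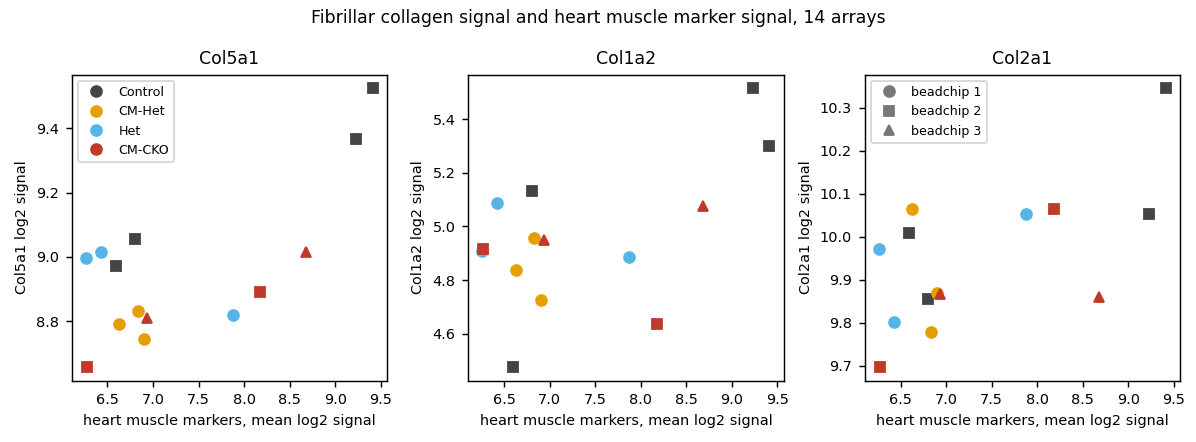
Log2 signal of Col5a1, Col1a2 and Col2a1 (vertical axes) against the mean log2 signal of 7 heart muscle markers (horizontal axes) on 14 arrays, coloured by genotype and shaped by beadchip. Control 1 and Control 3, at 9.41 and 9.23 on the heart axis, hold the highest Col5a1 and 2 of the highest Col1a2 values.

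Col5a1 was brightest in Control among the 4 genotypes. From high to low, the group means in log2 signal stood at 9.23 ± 0.26 for Control (SD, n = 4), 8.94 ± 0.11 for Het (n = 3), 8.84 ± 0.15 for CM-CKO (n = 4) and 8.79 ± 0.04 for CM-Het (n = 3). Het, CM-CKO and CM-Het did not differ beyond their spread. CM-Het arrays stood at 8.83, 8.79 and 8.74 and Het arrays at 9.01, 8.997 and 8.82. All 3 CM-Het arrays were below all 4 Control arrays, a non-overlap in the lower direction that 7.57% of all genes tested showed in that comparison. The difference, CM-Het minus Control, was -0.44 (SE 0.12, adjusted p = 0.0970, limma with Benjamini-Hochberg adjustment), and the exact permutation test gave p = 0.0571. It was -0.22 (adjusted p = 0.397) without Control 1 and Control 3, and -0.43 (adjusted p = 0.0423) with beadchip as a random block, the only setting in which any member was called. In that setting 277 of all genes were called, against 47 in the main fit, and the correlation within a beadchip was estimated at -0.06. CM-Het and Control share no beadchip, so beadchip and genotype cannot be told apart there. Het minus Control was -0.29 (SE 0.12, adjusted p = 0.332). CM-CKO differed from Het by -0.10 (95% interval -0.35 to 0.15) and from CM-Het by 0.05 (95% interval -0.20 to 0.30), within the spread between arrays. The comparisons against Control share the same 4 Control arrays. The interaction of Cre and the deleted allele was 0.34 (SE 0.17, adjusted p = 0.336), a contrast to which a shift between beadchips 1 and 2 adds.

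Col5a2, the partner chain of Col5a1 in type V collagen, stayed near background. Its brightest probe was above background on 2 of 3 Het arrays, at log2 signals of 5.12 and 4.79, and on none of the other 11. The remaining Het array was at 4.62, and the other genotypes ran from 4.30 to 4.66, so that 1 of the 3 Het arrays lay in the range of the rest. In the limma fit of all 34885 named probes without the filter, its CM-CKO minus Het difference was -0.44 (unadjusted p = 0.000660, adjusted p = 0.217, Benjamini-Hochberg), of signals that were above background on 0 CM-CKO arrays. Its differences from Het were larger than those between the other genotypes, and none was called. The other Col5a2 probes ran from 4.20 to 4.83 over all arrays, and 1 of them was above background on Control 2 alone. The lowest signal that counted as above background was 4.70 to 4.80, depending on the array.

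Col2a1, the cartilage and notochord collagen, was measured by 3 probes, all of which put the highest signal on Control 1. The brightest probe read 10.35, 9.85, 10.05 and 10.01 on Control arrays 1 to 4 and 9.70, 10.07, 9.87 and 9.86 on CM-CKO arrays 1 to 4. Control 2, 3 and 4 lay within the CM-CKO range, and Control 1 above it. Its CM-CKO minus Control difference was -0.19 (SE 0.10, 95% interval -0.41 to 0.02, adjusted p = 0.501). The other probes gave -0.33 (adjusted p = 0.348) and -0.40 (adjusted p = 0.213) in a limma fit of all 17991 detected named probes, with Benjamini-Hochberg adjustment. Without Control 1, the 3 probes gave -0.10, -0.19 and -0.27. Control 1 was the brightest array for 12.3% of all genes tested, more than any other array.

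In CM-Het and Het the 3 Col2a1 probes differed in size. CM-Het arrays read 9.78, 10.06 and 9.87 and Het arrays 9.80, 9.97 and 10.05 on the brightest probe. Group means of that probe were 10.07 ± 0.20 in Control (SD, n = 4), 9.94 ± 0.13 in Het (n = 3), 9.90 ± 0.15 in CM-Het (n = 3) and 9.87 ± 0.15 in CM-CKO (n = 4), and no neighbours in that order differed beyond their spread. None of the 6 pairwise differences of the brightest probe was called, and their 95% intervals all included 0. The third probe read 8.77, 9.04 and 8.87 on CM-Het arrays and 9.11, 8.90 and 8.91 on Het arrays, against 9.77, 9.28, 9.34 and 9.10 on Control arrays. All 3 CM-Het arrays were below all 4 Control arrays on it, as for 7.57% of all genes tested, and the Het arrays overlapped with Control. Neither CM-Het nor Het shares a beadchip with Control, so beadchip and genotype cannot be told apart for this probe. Its differences from Control were -0.48 in CM-Het (unadjusted p = 0.00222, adjusted p = 0.108) and -0.40 in Het (unadjusted p = 0.00787, adjusted p = 0.227), in the limma fit of detected probes with Benjamini-Hochberg adjustment. The second probe gave -0.34 in CM-Het (unadjusted p = 0.0241, adjusted p = 0.239) and -0.15 in Het (adjusted p = 0.680). No Col2a1 probe was called in any pair, and the probes disagreed on whether the unadjusted p was under 0.05. The within-genotype SD of the brightest Col2a1 probe was 0.16, equal to the median of all genes tested at this precision. Notochord markers (4 of 6 tested, with Shh and Chrd above background on 14 arrays) gave 6.24 to 6.72 over all arrays. Of cartilage markers, Matn3 was above background on 0 arrays and Comp on 1. Of the 3 cartilage markers tested, Acan and Matn1 were at 0.37 and 0.22 in CM-CKO against Control, neither of them called. Acan was above background on at most 5 arrays and Matn1 on 6, so signal near background limits both values. Hapln1, a link protein of cartilage matrix also expressed in embryonic heart, fell by 0.73 in CM-CKO against Control (adjusted p = 0.0205).

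Col11a1, the chain that starts type II fibrils, was barely above background. Its tested probe read 4.54, 4.78, 4.64 and 4.82 on Control arrays and 4.72, 4.76, 4.51 and 4.68 on CM-CKO arrays. CM-Het arrays read 4.48, 4.92 and 4.41, and Het arrays 4.67, 4.67 and 4.47. The highest value was on CM-Het 2 and the groups overlapped throughout. The CM-CKO minus Control difference was -0.03 (95% interval -0.30 to 0.24, adjusted p = 0.964).

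The type I collagen chains had 1 probe each, both of low signal, and the 2 probes differed in how often they were above background. A weak probe and low RNA cannot be told apart. Col1a2 read 5.30, 5.13, 5.51 and 4.48 on Control arrays and 4.92, 4.64, 4.95 and 5.07 on CM-CKO arrays. Control held both the highest and the lowest of the 14 values, and its SD of 0.45 (n = 4) exceeded that of the other genotypes (0.11 to 0.18). CM-Het arrays read 4.96, 4.84 and 4.72 and Het arrays 5.09, 4.91 and 4.88. The CM-CKO minus Control difference was -0.21 (SE 0.18, adjusted p = 0.687), and it turned to 0.09 (adjusted p = 0.897) without Control 1 and Control 3. It was -0.42 without Control 4 and -0.08 without Control 3. The within-genotype SD of Col1a2 was 0.27, larger than that of 90.1% of the genes tested.

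Col1a1 read 4.87, 4.63, 4.91 and 4.45 on Control arrays and 4.18, 4.74, 4.33 and 4.34 on CM-CKO arrays. The arrays above background were Control 1, Control 3 and CM-CKO 2, with heart muscle signals of 9.41, 9.23 and 8.18. CM-CKO 4, at a heart muscle signal of 8.68, was not above background for Col1a1, and Het 3, at 7.87, was the lowest Het array. CM-Het arrays (4.42 to 4.69) and Het arrays (4.47 to 4.67) were not above background on any array, so only a bound is known there, no fold is given, and the sign of a difference that involves them is not measured. The CM-CKO minus Control difference was -0.32 (SE 0.14, 95% interval -0.61 to -0.02), with an unadjusted p of 0.0370 and an adjusted p of 0.409 from limma with Benjamini-Hochberg adjustment. Without Control 1 and Control 3 it was -0.14 (adjusted p = 0.800).

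Col3a1, which joins type I collagen in soft connective tissue, was not seen as a measurable transcript. Its brighter probe ran from 4.29 to 4.85 and was above background on Het 2 alone. The dimmer probe ran from 4.21 to 4.69 and was above background on 0 arrays.

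**Figure D3:**
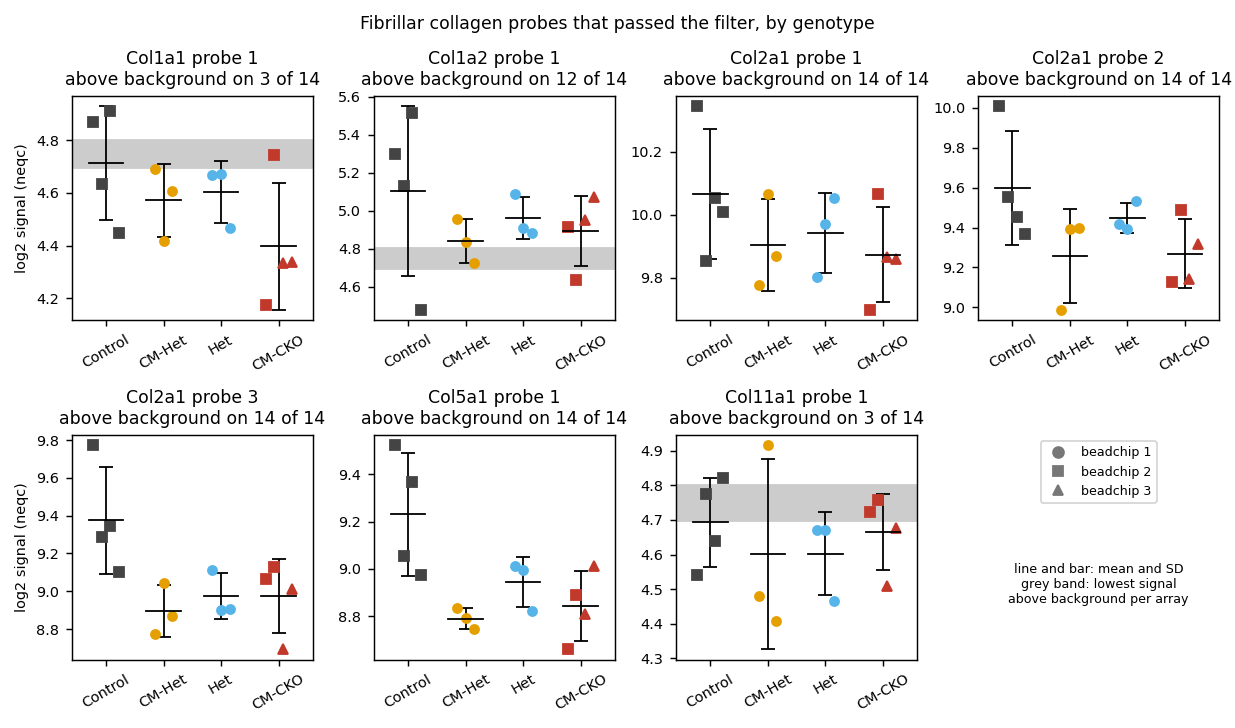
Log2 signal (vertical axes) of the 7 probes that passed the filter on each array, by genotype (horizontal axes), with the mean and SD of each group and the shape giving the beadchip. For Col5a1 and Col1a2, Control 1, 2 and 3 lie above every array of the other genotypes, as Control 1 does for each Col2a1 probe. Most Col1a1 and Col11a1 points lie in or below the grey band of lowest signals above background. The exceptions are 2 Control arrays of Col1a1 and 1 array each of Control and CM-Het for Col11a1.

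In the other comparisons, too, no member was called in the main limma fit. The count was 0 of 5 in CM-CKO against Het, against 0.219% of all genes, and 0 of 5 in CM-CKO against CM-Het, against 0.211%. It was 0 of 5 in CM-Het against Control, against 0.412% of all genes, while Het against Control and CM-Het against Het called 0% of all genes. At an unadjusted p under 0.05, among the brightest probes, Col5a1 was the member that passed in CM-Het against Control and in Het against Control, where 15.8% and 12.4% of all genes passed. The third Col2a1 probe passed in both and the second in CM-Het against Control. Averaged over the second Twist1 allele, Mesp1-Cre gave 0 calls among members and 0.263% of all genes, and Col5a1 stood at -0.27 (SE 0.08, adjusted p = 0.358). The deleted allele averaged over Cre called 0 members and 0.0878% of all genes. The interaction, to which a shift between beadchips 1 and 2 adds, called 0 members and 1% of all genes.

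**Figure D4:**
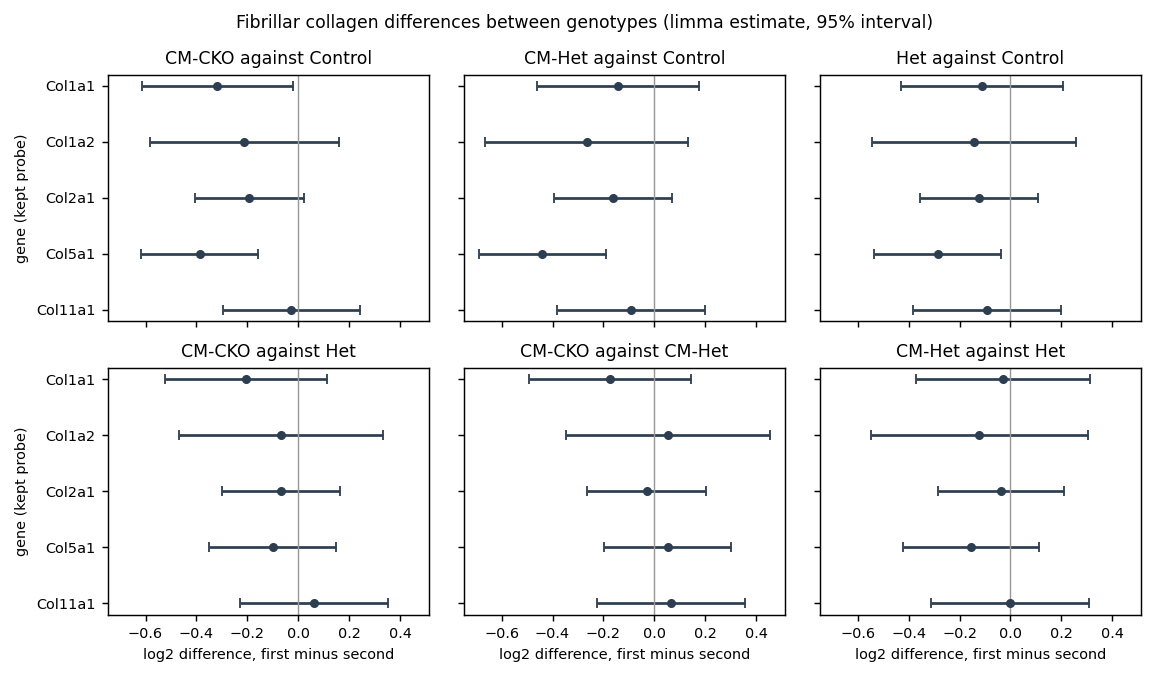
Log2 differences (first genotype minus second, horizontal axes) with 95% intervals from limma for the 5 tested fibrillar collagen genes in 6 comparisons of genotypes. In the 3 panels against Control the fitted values lie below 0, although Col1a1 in CM-Het and Het and Col11a1 in Het were above background on 0 arrays, and the intervals of Col5a1 leave out 0 in each of them, with adjusted p of 0.151, 0.0970 and 0.332.

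By likeness of pattern, the gene nearest to Col5a1 over the 14 arrays was Inpp5a, with a root mean square difference of 0.11 between log2 profiles centred on their own means, against 0.23 for a flat profile. Plac9a and Igf1 followed at 0.13 each. For Col2a1 the nearest were Rbpms, Atp5d and Fblim1 at 0.09 each, against 0.16 for a flat profile. For Col1a1, above background on only 3 arrays, they were Abi3, Tmem204 and Ccne1 (0.11 to 0.13, flat 0.21). For Col1a2 they were Srpk3, Gdpd5 and Lrif1 (0.14 to 0.16, flat 0.25). For Col11a1, above background on 3 arrays, they were Zbtb39, Nsf and Cdc45 (0.09 each, flat 0.14). Col3a1 and Col5a2 were too close to background for a pattern to be compared. The 3 Col2a1 probes differed from each other by 0.14 to 0.20. The neighbours were picked as the smallest differences over all detected genes. Their closeness is set by that choice, and no shared regulation is read from it.

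Of the listed genes that handle fibrillar collagens, 3 were called in CM-CKO against Control. Pcolce, which speeds the removal of the C-terminal propeptide of procollagens, and the small leucine-rich proteoglycans Lum and Bgn, which bind collagen fibrils, all fell in CM-CKO against Control. Pcolce read 6.52, 6.38, 6.03 and 6.12 on Control arrays and 4.83, 4.77, 4.52 and 5.03 on CM-CKO arrays. Lum read 6.68, 7.08, 7.14 and 6.86 against 4.44, 4.64, 4.81 and 5.10, and Bgn 8.30, 8.38, 8.54 and 8.23 against 7.38, 6.55, 7.02 and 6.65. In each case every CM-CKO array was below every Control array, as for 2.88% of all genes.

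Pcolce changed by -1.48 on the log2 scale (SE 0.14), a 2.78-fold lower mean (adjusted p = 7.80e-06, limma with Benjamini-Hochberg adjustment). Lum changed by -2.19 (SE 0.14, adjusted p = 1.28e-07), and Bgn by -1.47 (SE 0.15, adjusted p = 3.25e-05). Another Lum probe gave -1.425 (adjusted p = 6.0e-06) in the limma fit of detected probes. In CM-Het against Control that probe gave -0.65 (adjusted p = 0.0475), where the brightest Lum probe was not called. Pcolce was above background on 3 of 4 and Lum on 2 of 4 CM-CKO arrays, so their folds depend on the background step. In the deposited log2 values, which have no background subtraction, Pcolce changed by -0.53 and Lum by -0.91. Without Control 1 and Control 3 the differences were -1.46, -2.22 and -1.41 for Pcolce, Lum and Bgn, each still called. In CM-Het against Control, Pcolce fell by 0.74 (adjusted p = 0.0456), and this call was lost in 18 of 24 alternatives, including leaving out any single Control or CM-Het array (adjusted p of 0.0552 to 0.180). The head mesenchyme markers moved with these genes, and all 9 tested had estimates below 0 in CM-CKO against Control. Of them, 5 were called lower (Twist2, Alx4, Pdgfra, Pdgfrb and Ebf3), where 0.518% of all genes tested were called lower. The part of these markers in the result was not tested.

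Across all genes tested, 0.518% were called lower and 0.184% higher in CM-CKO against Control, and the lists held few calls. The lists were chosen with earlier results of these data known, so no excess over that share can be read from them. Of the procollagen processing and crosslinking genes, 6 of 12 listed were tested and 1 was called lower, with a median of -0.20. Of the fibril partners, 7 of 10 were tested and 2 were called lower, with a median of -0.38. Bmp1, the C-propeptide proteinase that Pcolce assists, was at -0.06 (95% interval -0.27 to 0.14), though 1 of its other probes read -0.41 (adjusted p = 0.272). Lox, which crosslinks collagen, was above background on 4 of 4 Control and 0 of 4 CM-CKO arrays, so its Control mean was at least 1.09-fold higher, with an adjusted p of 0.236. Sparc, a collagen-binding matricellular protein, was at -0.07 (95% interval -0.31 to 0.17).

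Collagen folding and modification genes showed 0 of 20 tested called in CM-CKO against Control, against 0.702% of all genes, with a median of -0.03. At an unadjusted limma p under 0.05 there were 4 of the 20, 2 in each direction, where 11.2% of all genes tested met this. No excess over that share can be read, since the lists were chosen with earlier results of these data known. Serpinh1, the collagen chaperone, read 12.91, 12.57, 12.92 and 12.67 in Control and 12.91, 12.72, 12.77 and 12.88 in CM-CKO, a difference of 0.05 (95% interval -0.12 to 0.22). Its other probe read -0.49 (adjusted p = 0.222). The prolyl hydroxylase subunit P4ha1 was at -0.08 and the lysyl hydroxylases Plod1 and Plod2 at 0.21 and -0.02, none of them called. P4ha2, also a prolyl hydroxylase subunit, fell by 0.67 against Het (adjusted p = 0.00682) and by 0.58 against CM-Het (adjusted p = 0.0293), with -0.29 against Control (adjusted p = 0.257). Its interaction was -0.96 (adjusted p = 0.0101), a contrast to which a shift between beadchips 1 and 2 adds. Mean P4ha2 log2 signal was 8.66 in Control, 8.95 in CM-Het, 9.03 in Het and 8.36 in CM-CKO. Neither Het nor CM-Het shares a beadchip with CM-CKO, so beadchip and genotype cannot be told apart in those comparisons. The calls against Het and CM-Het were lost when either the beadchip 3 arrays or the CM-CKO arrays of beadchip 2 were left out (adjusted p of 0.0699 to 0.204). The call against Het was also lost without Het 2 (adjusted p = 0.0980), and that against CM-Het without CM-Het 1, CM-Het 2, CM-CKO 1 or CM-CKO 3 (adjusted p of 0.0900 to 0.179). The call against CM-Het was also lost with only the arrays compared (0.0529), with the replicate block (0.0551) and with no trend in the variance prior (0.0598).

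The other listed collagens, fibrillar and fibril-associated, held no call in CM-CKO against Control, nor did the listed receptors, turnover genes and regulators. Collagens outside these lists were not examined here. The other fibrillar collagens Col5a3, Col11a2, Col24a1 and Col27a1 were all tested, with a median of 0.06. Of fibril-associated collagens 5 of 10 were tested, with a median of -0.10, and Col16a1 alone was called, in CM-Het against Control (-0.60, adjusted p = 0.0475), a call lost in 21 of 24 alternatives, including leaving out any single Control or CM-Het array (adjusted p of 0.0610 to 0.183). Of receptors and turnover genes 10 of 16 were tested, with a median of -0.12. The matrix metalloproteinases Mmp2 and Mmp14 were at -0.18 (adjusted p = 0.407) and -0.10 (adjusted p = 0.733), and the collagen receptor gene Ddr2 did not pass the filter. Of collagen gene regulators 14 of 18 were tested, with a median of 0.10. Sox9, the activator of Col2a1 in cartilage, was at -0.23 (SE 0.07, adjusted p = 0.160).

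**Figure D5:**
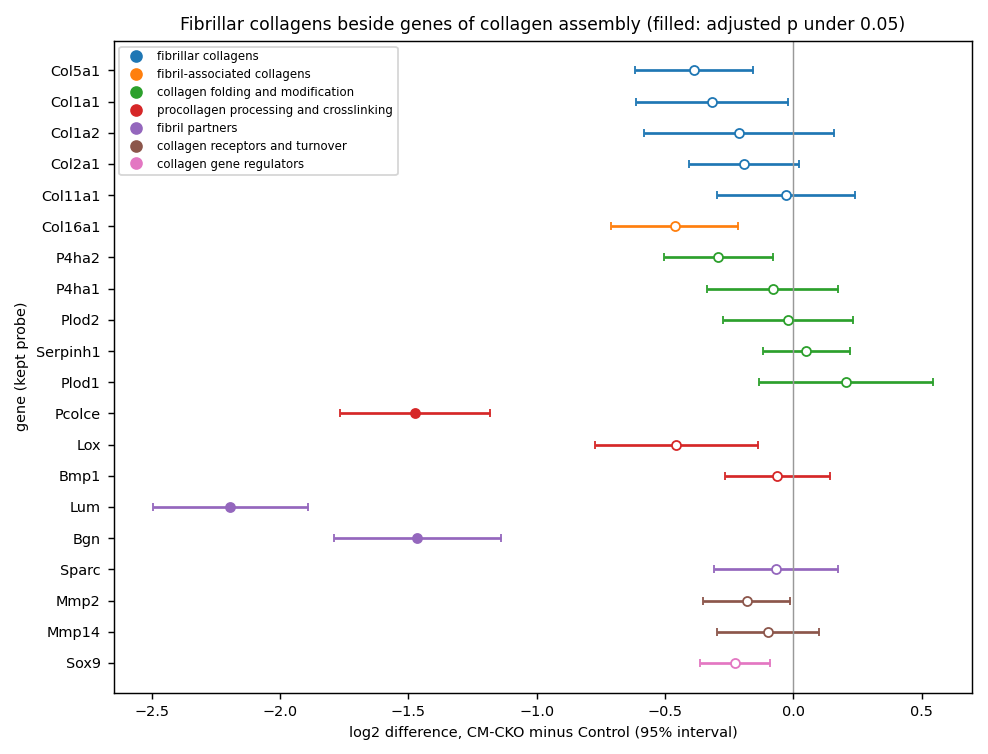
Log2 difference, CM-CKO minus Control (horizontal axis), with 95% interval for the 5 tested fibrillar collagens and 15 genes of collagen assembly, coloured by list and filled where the adjusted p is under 0.05. Pcolce, Lum and Bgn lie between -2.19 and -1.47, and the fibrillar collagens between -0.39 and -0.03.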

How the data were processed

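The authors deposited, per the file headers, a linear bead signal intensity per probe with a detection p-value, and a table of processed log2 values that equals quantile-normalized log2 intensity to within 0.0329. The sources used here give no scanner, summary software or genome build. The deposited detection p-values are not on the rows of their intensities, and were put back by rank within each array. In that order 80.7% of values of 101 ribosomal protein probes and 3.86% of beta-defensin values were under 0.05, against 62.6% and 49.6% as deposited. Intensities went through neqc (limma 3.58.1, R 4.3.3, offset 16). Probes above background on at least 3 of 14 arrays were kept, the brightest per gene, which left 11394 genes. Levels are compared only within a probe.

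Group means of the 4 genotypes were fitted over all arrays with lmFit and eBayes (trend), with 9 contrasts and Benjamini-Hochberg adjustment over all genes, called under 0.05. The script was tested on simulated data. Probe symbols come from the platform annotation, and 34852 of 34885 were found in the RefSeq table of GRCm38.p6. Named genes are all members, the listed genes called in any contrast, 12 fixed assembly genes, and the 3 genes nearest in pattern per member, not printed for Col3a1 and Col5a2. The members and lists were chosen with earlier results of these data known. Same-numbered arrays of different genotypes did not deviate together (correlations from -0.24 to 0.25 over 19 pairs, 4 over 0.1), so the numbers were not used as pairs. The number of arrays limits the precision, and no counts exist. No 2 arrays were identical. Alternatives changed the background step, filter, probe choice, beadchip terms, arrays used and variance prior.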

Additional observations from a re-analysis of the deposited data

Results flagged for a closer look

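In 4 of 46 groups of 4 arrays tested, a single array stood apart from the others by Dixon's criterion at the 95% level, which chance meets in about 1 of 20 groups. None concerned a fibrillar collagen. P4ha2 was at 8.46 on Control 4, with the other Control arrays at 8.70 to 8.74. Lox was at 4.65 on CM-CKO 4, with the others of that genotype at 4.27 to 4.33, all not above background. Bmp1 was at 8.09 on Control 1, with the other Control arrays at 8.39 to 8.41. Sparc was at 10.06 on CM-CKO 3, with the others at 9.89 to 9.91.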

How the results depend on the processing

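No fibrillar collagen was called in any of the 9 contrasts under any alternative except CM-Het against Control with beadchip as a random block, where the count was 1 (Col5a1), while the all-gene count rose from 47 to 277. With detection p-values in their deposited order, Col1a1, Col1a2 and Col5a1 were not above background often enough to be tested. Of 727 values of single members under alternatives, 38 lay on the other side of 0, none larger than 0.16 and none called. The replicate block changed no member's call, and turned Col1a2, CM-CKO against Het, to 0.0074. It moved the all-gene count in CM-Het against Control from 47 to 11.

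Without Control 1 and Control 3, chosen after seeing the data, the differences against Control were 0.089 (Col1a2), 0.0732 (Plod2) and 0.0622 (Sparc) in CM-CKO, 0.0314 (Col1a1) and 0.0344 (Col1a2) in CM-Het, and 0.0623 (Col1a1), 0.156 (Col1a2) and 0.0098 (Col2a1) in Het. With heart muscle signal as a covariate, also chosen later, they were 0.0194 (Plod2, CM-CKO against Control), -0.0349 (Col1a2) and -0.0329 (Col5a1, both CM-CKO against CM-Het) and 0.0042 (Col1a1, Het against Control). Both the fixed beadchip block and leaving out beadchip 3 gave 0.046 for Col11a1 and 0.0235 for Bmp1 in CM-CKO against Control, and without beadchip 3 CM-CKO against CM-Het was -0.0635 (Col1a2) and -0.0151 (Col5a1). Without the CM-CKO arrays of beadchip 2 the values were 0.0566 (Plod2, against Control), 0.0509 (Col1a2) and -0.0096 (Col11a1) against Het, and -0.0083 (Col11a1) against CM-Het. The cause of these turns was not tested. Col1a1 in CM-Het and Het, and Col11a1 in Het, were above background on 0 arrays, so the signs of their values are not measured.

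Leaving out 1 array at a time, CM-CKO against Control ran from -0.0786 to 0.025 (Col11a1), -0.0167 to 0.102 (Serpinh1), -0.125 to 0.0623 (Plod2) and -0.131 to 0.0555 (Sparc). CM-CKO against Het ran from -0.127 to 0.0188 (Col1a2) and -0.0051 to 0.116 (Col11a1). CM-CKO against CM-Het ran from -0.0056 to 0.141 (Col1a2), -0.095 to 0.0496 (Col2a1), -0.0035 to 0.115 (Col5a1) and -0.0322 to 0.222 (Col11a1). CM-Het against Control ran from -0.25 to 0.0049 (Col11a1). CM-Het against Het ran from -0.0989 to 0.0457 (Col1a1), -0.119 to 0.0248 (Col2a1) and -0.159 to 0.0959 (Col11a1).

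The Twist1 difference between CM-CKO and Control (-1.56) kept its call in every alternative (-1.63 to -1.26). In CM-Het against Control the Twist1 difference was -0.66 (adjusted p = 0.0296, limma with Benjamini-Hochberg adjustment), a call lost in 9 of 24 alternatives. In Het against Control the Twist1 difference was -0.72 and was not called (adjusted p = 0.0823). The all-gene counts moved more: 27 to 89 in CM-CKO against Control, 13 to 40 against Het, 7 to 53 against CM-Het, 0 to 277 in CM-Het against Control, 0 to 83 in Het against Control, 13 to 714 for the interaction, 16 to 42 for Cre and 4 to 16 for the deleted allele. A fixed beadchip block could not be fitted where genotypes share no beadchip. Signal over background limits Col1a1, Col3a1, Col5a2 and Col11a1.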
